A study of Saccharomyces cerevisiae with 39 samples.

Results

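The comparison sets diploid budding yeast with a copper-induced excess of the mRNA-binding protein Pho92 (CUP1_WT, titled CUP1_Pho92_WT) against the wild type with the native gene (WT). It was chosen by sample title and holds 6 of the 39 RNA sequencing libraries of the series, 3 of CUP1_WT and 3 of WT, with replicate numbers 1 to 3 in each. In CUP1_WT the native gene was replaced (hyg::pho92) and an HA-tagged, unaltered PHO92 under the promoter of the copper metallothionein gene CUP1 stood at the tryptophan marker locus (Trp1::CUP1-HA-PHO92-WT). WT had PHO92 under its own promoter and no such copy. All strains shared MATa/alpha, trp1::hisG and his3::hisG, as well as leu2::hisG, ura3, lys2 and ho::LYS2. All cells were moved to acetate-based sporulation medium, and all, WT included, received 50 µM copper sulphate 3 h later. The promoter, the tag, the place of the gene, the markers and the amount of PHO92 all differ between CUP1_WT and WT, and their effects cannot be told apart here. The labels name no separate cultures, so p-values measure the spread between these libraries, which may be technical.

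Pho92 is the YTH-domain reader of N6-methyladenosine (m6A) in budding yeast. During early meiosis the methyltransferase Ime4 and its partners place m6A on many mRNAs, and Pho92 binds the marked mRNAs and promotes their decay and translation. The series asks which parts of its disordered region serve m6A-dependent mRNA turnover. W177A, a substitution in the YTH domain, W18A, a substitution in the disordered region, and the strain without PHO92 (pho92_null) are given below only beside CUP1_WT and WT.

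Poly(A) RNA was sequenced, and the 6 libraries held 19096915 to 22062244 counts each, within the 15928411 to 37186964 of the series. Levels are counts per 1000000 (CPM) after scaling by trimmed mean of M-values (TMM), with factors of 0.865 to 1.1 in the 6 libraries. CPM is not per length, so levels are compared between strains and not between genes. Replicates differed by far more than counting noise (chi-square 33 to 437 per degree of freedom), so none was a copy of another. A gene is said to have risen or fallen where its adjusted p from limma, over 5840 genes and with all 39 libraries in the fit, was under 0.05. Genes of meiotic entry were present at similar levels: the inducer IME1 had 3344, 4337 and 3267 CPM in CUP1_WT, against 4440, 4416 and 3771 CPM in WT. Haploid and mating-type genes summed to 317 to 565 CPM in CUP1_WT and 350 to 527 CPM in WT, and 0 of 17 passed the test (5 at an unadjusted limma p under 0.05).

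PHO92 (YDR374C) was measured first. It had 8197, 9805 and 11234 CPM in CUP1_WT, against 1054, 957 and 802 CPM in WT. Every CUP1_WT library lay far above every WT library, with means of 9746 ± 1519 and 938 ± 127 CPM (SD, n = 3 each). The ratio was 10.4, or 11 when CPM were taken from library totals without TMM. On the log2 scale the difference was 3.37 (SE 0.44, limma adjusted p = 2.58e-05). PHO92 had 1.13 ± 1.15 CPM in pho92_null, 10175 ± 1854 CPM in W18A and 10700 ± 1327 CPM in W177A (SD, n = 3 each). The counts themselves do not separate native from tagged transcripts. By genotype, CUP1_WT holds only the tagged copy and WT only the native gene. None of the 6 genes of the m6A writer complex changed (0 also at an unadjusted limma p under 0.05), with log2 values of -0.05 to 0.12. IME4, the catalytic subunit, had 246, 302 and 281 CPM in CUP1_WT, against 252, 254 and 261 CPM in WT.

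In the fit with no block for replicate number, few mRNAs were called, and most of those differed by less than 2-fold. Of 5840 genes, 97 were called (1.66%), 66 higher in CUP1_WT (1.13%) and 31 lower (0.531%). Only 10 of the called genes differed at least 2-fold, 3 higher and 7 lower. The median log2 difference was 0.56 over the called rises without PHO92, -0.62 over the called falls, and 0.02 over all genes. The 12 greatest rises that met the naming rule include 5 mitochondrial ribosomal protein genes. The 12 greatest falls are FAT3, TRP1, TIP1, ADH2, CIT3, PDH1, DPC7, YER121W, SIP18, IDP3, YAT2 and ATO3. Of these SIP18 lost its call whichever of the 6 libraries was left out (limma adjusted p of 0.0659 to 0.171). DPC7 lost its call without CUP1_WT replicate 2 or 3 or WT replicate 1 (limma adjusted p of 0.0519 to 0.0768). YER121W lost its call without CUP1_WT replicate 1 or 2 or WT replicate 1 (limma adjusted p of 0.0615 to 0.126). In 96 of the 97 genes the libraries of CUP1_WT and WT did not overlap, the exception being MRPL6. Over all genes tested, the 3 CUP1_WT libraries lay above the 3 WT libraries in 8.17% and below them in 8.99%.

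Same-numbered libraries deviated together, and with the replicate number as a block 198 genes were called (3.39%), 125 higher (2.14%) and 73 lower (1.25%), all 97 among them. With the block and only the 6 libraries, 1035 of 5728 genes were called (18.1%), again with all 97. Only 2 genes were called from the 6 libraries without the block (560 at an unadjusted limma p under 0.05). Without the block, leaving out a library also moved the count, to 50 and 53 without WT replicates 1 and 2, and to 61 and 57 without CUP1_WT replicates 2 and 3.

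**Figure D1:**
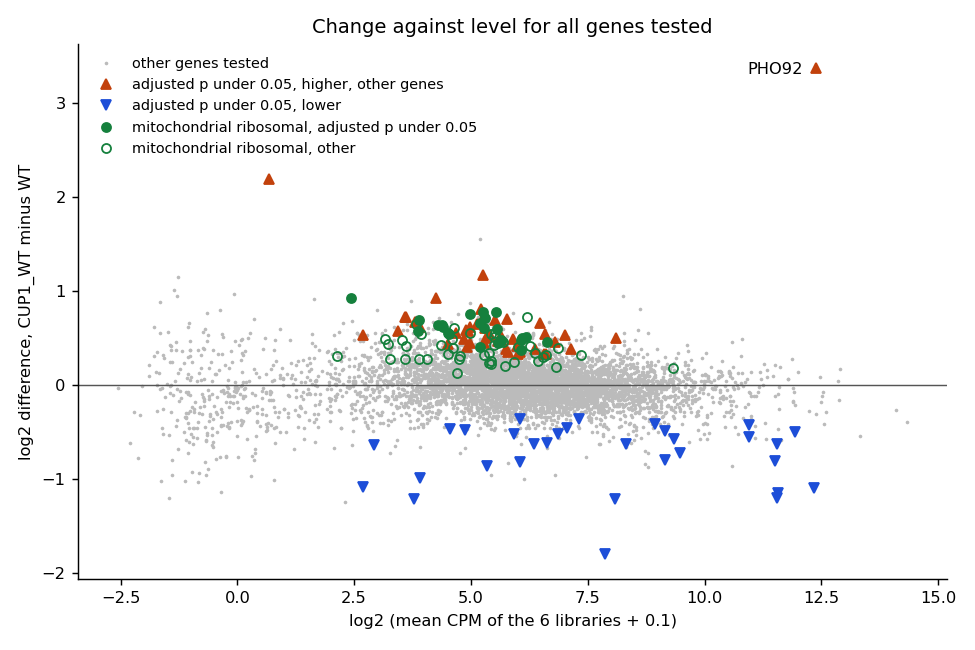
Log2 difference of CUP1_WT minus WT (vertical) against log2 mean CPM of the 6 libraries plus 0.1 (horizontal) for 5840 genes. Triangles mark genes with an adjusted p under 0.05 and circles the 67 listed mitochondrial ribosomal protein genes, which all lie above 0.

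The mitochondrial ribosome had the most called genes among the functional lists examined. It translates the few mRNAs of the mitochondrial genome, and most of its proteins are encoded in the nucleus, made in the cytosol and imported. Its list was taken by gene name (MRPL, MRPS, RSM or MRP and a number). Genes of this ribosome with other names, such as RML2 and NAM9, are not in it. Of the 67 listed genes, all tested, 22 rose and 0 fell, against 1.13% of all genes called higher. All 67 had a log2 difference above 0, with a median of 0.45 and a range of 0.13 to 0.93, against a median of 0.02 over all genes. In 41 of the 67 the 3 CUP1_WT libraries lay above the 3 WT libraries, against 8.17% of all genes. With the replicate block 36 rose, and with the block and only the 6 libraries 55 rose, against 10.7% of all genes called higher in that fit, while the 6 libraries without the block called none of them (41 at an unadjusted limma p under 0.05). The same-numbered pairs gave medians of 0.47, 0.38 and 0.49.

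MRPL35 (YDR322W), of the large subunit, had 59.3, 57.1 and 60 CPM in CUP1_WT, against 36.2, 31.5 and 34.9 CPM in WT. The difference was 0.78 on the log2 scale (SE 0.09, limma adjusted p = 1.13e-05), with a narrow spread in both strains. MRPS5 (YBR251W), of the small subunit, had 44.5, 46.5 and 52.7 CPM in CUP1_WT, against 25.5, 27.4 and 30.8 CPM in WT, a log2 of 0.78 (SE 0.11, limma adjusted p = 9.50e-05). MRPS8 (YMR158W), also of the small subunit and low in all libraries, had 7.25, 5.75 and 7.83 CPM in CUP1_WT, against 3.7, 3.41 and 3.64 CPM in WT. Its log2 of 0.93 was the highest of the 67 genes (SE 0.18, limma adjusted p = 0.00341). RSM26 (YJR101W) had 42.8, 34.3 and 41.5 CPM in CUP1_WT, against 23.2, 21.6 and 24.9 CPM in WT, a log2 of 0.76 (SE 0.12, limma adjusted p = 0.000398). MRPL20 (YKR085C) had 61.4, 40.8 and 44.2 CPM in CUP1_WT, against 32.9, 28.1 and 27.6 CPM in WT. CUP1_WT replicate 1 was the highest there, and without it the log2 went to 0.52 (limma adjusted p = 0.244), against 0.71 with it (SE 0.17, limma adjusted p = 0.0253). The MRPL20 call was also lost without CUP1_WT replicate 3 or any WT library (limma adjusted p of 0.059 to 0.157).

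The other 17 of the 22 lay between 0.37 for MRPL13 and 0.69 for MRPL49. Several of their calls were lost when 1 library was left out, such as that of MRPL13 without CUP1_WT replicate 3 (limma adjusted p = 0.158). These 17 genes belong to both subunits, among them MRPL3, MRPL9, MRPL10, MRPL15 and MRPL40 of the large and MRPS9, MRPS18, MRPS28, RSM25 and RSM28 of the small subunit. MRPS9 (YBR146W) had 84, 78.3 and 77.6 CPM in CUP1_WT, against 59.3, 54.1 and 56.3 CPM in WT. That is a log2 of 0.50 (SE 0.07, limma adjusted p = 7.22e-05), a modest difference measured with a small spread. MRPL7 was the lowest of the 67, at 0.13 (SE 0.13, limma adjusted p = 0.912).

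For the cytosolic ribosome no gene was called. Of its 127 protein genes 0 passed the test (0 also at an unadjusted limma p under 0.05), although 110 lay above 0 and the median was 0.21. Their mean log2 level relative to WT was 0.20, -0.17 and 0.50 in CUP1_WT, against 0.04, -0.18 and 0.15 in WT. The CUP1_WT libraries lay both within and outside the WT range. With the block and only the 6 libraries 35 of the 127 rose, against 10.7% of all genes called higher in that fit, so calls of these genes depend on the fit. Whether the change differed between the mitochondrial and the cytosolic ribosome was not tested.

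Set beside the other strains, the mean log2 level of the 67 mitochondrial ribosomal genes relative to WT was 0.55, 0.37 and 0.44 in CUP1_WT, against 0.06, -0.02 and -0.04 in WT. W18A, with a similar amount of PHO92 mRNA, had 0.48 ± 0.10. W177A, also with a similar amount, had 0.02 ± 0.01, and pho92_null had -0.21 ± 0.08 (SD, n = 3 each). CUP1_WT and W18A thus lay above WT without overlap, W177A lay within the range of WT, and pho92_null lay below it. W5A and W5A_W18A, with the highest PHO92 levels (14790 ± 659 and 14852 ± 1959 CPM), had 0.28 ± 0.05 and 0.30 ± 0.09 (SD, n = 3 each). These strain levels share the WT libraries as their zero and were not tested against each other.

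**Figure D2:**
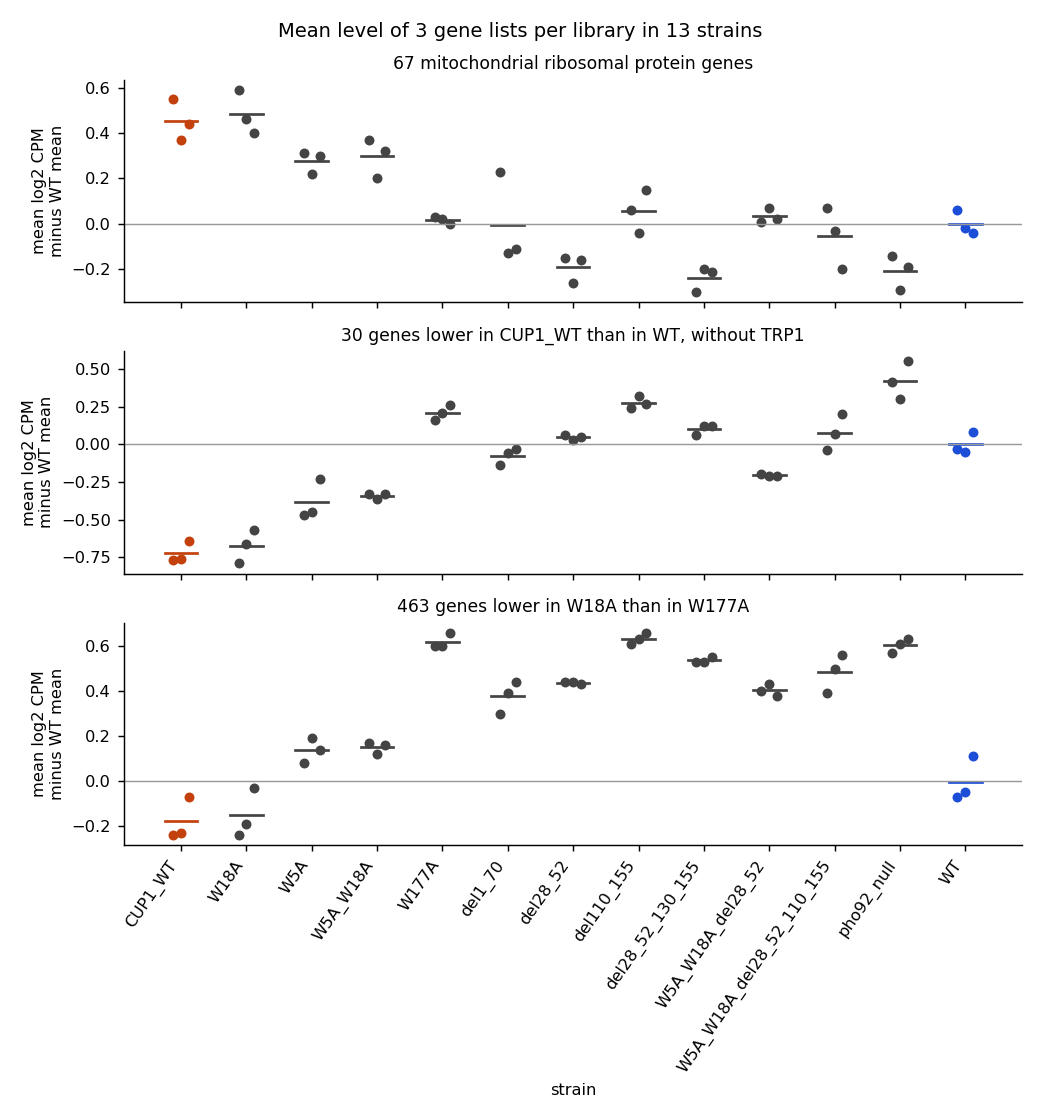
Mean log2 CPM minus the WT mean (vertical) per library (points) with the strain mean (bar) for 3 gene lists in 13 strains, CUP1_WT at the left and WT at the right. The 67 mitochondrial ribosomal genes were at 0.45 in CUP1_WT, 0.02 in W177A and 0.00 in WT, and the 30 fallen genes, chosen on CUP1_WT against WT, at -0.72, 0.21 and 0.00.

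Other proteins of mitochondrial gene expression and assembly rose as well. The greatest rise after PHO92 and YDR008C was that of MAM33 (YIL070C), an acidic protein of the mitochondrial matrix. It had 47.6, 47.7 and 62.3 CPM in CUP1_WT, against 20.5, 20.5 and 29.2 CPM in WT, a log2 of 1.17 (SE 0.17, limma adjusted p = 7.22e-05). It had 24.6 ± 3.25 CPM in pho92_null and 30 ± 4.25 CPM in W177A, against 55.1 ± 7.87 CPM in W18A (SD, n = 3 each). MTF1 (YMR228W), the specificity factor of the mitochondrial RNA polymerase, had 22.1, 23.6 and 28 CPM in CUP1_WT, against 10.2, 11.3 and 18.1 CPM in WT, a log2 of 0.93 (SE 0.15, limma adjusted p = 0.000398). WT replicate 3 was the highest WT library for both genes, as CUP1_WT replicate 3 was among its strain, and no library of WT reached one of CUP1_WT.

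Among the assembly and import factors, COX23 (YHR116W), a protein of the intermembrane space needed for cytochrome oxidase assembly, had 43.4, 48.7 and 49 CPM in CUP1_WT, against 26.5, 26.1 and 27.8 CPM in WT. Its log2 was 0.81 (SE 0.17, limma adjusted p = 0.00626). COX18, which helps insert a cytochrome oxidase subunit into the inner membrane, rose by 0.72 (SE 0.14, limma adjusted p = 0.00332), at 14.7 to 15.9 CPM in CUP1_WT, against 9.08 to 9.17 CPM in WT. CYC3 (YAL039C), the haem lyase of cytochrome c, had 60.4, 67.6 and 74.5 CPM in CUP1_WT, against 37.7, 39.1 and 48.3 CPM in WT. Its call was lost without CUP1_WT replicate 2 or 3 or WT replicate 1 or 2 (limma adjusted p of 0.0603 to 0.107). TIM12, of an inner-membrane translocase, had a log2 of 0.73 (SE 0.18, limma adjusted p = 0.0225), a call lost whichever of the 6 libraries was left out (adjusted p of 0.0515 to 0.138). Smaller rises were those of MAS1, a subunit of the matrix processing peptidase (log2 0.53), TOM20, an import receptor (0.52), MSK1, MSE1 and MSF1, mitochondrial aminoacyl-tRNA synthetases (0.61, 0.45 and 0.45), and the assembly factors ATP11, COX11 and CBP3 (0.54, 0.41 and 0.39). Genes with other roles also rose, such as ASP1, the cytosolic asparaginase (0.76), SCJ1, a chaperone of the endoplasmic reticulum (0.66), and ALG3, a mannosyltransferase of the same compartment (0.33). The ASP1 call was lost without CUP1_WT replicate 3 or WT replicate 1 (limma adjusted p of 0.0519 and 0.0708). The factors named in this paragraph outside the 12 greatest rises were chosen after their values were seen.

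**Figure D3:**
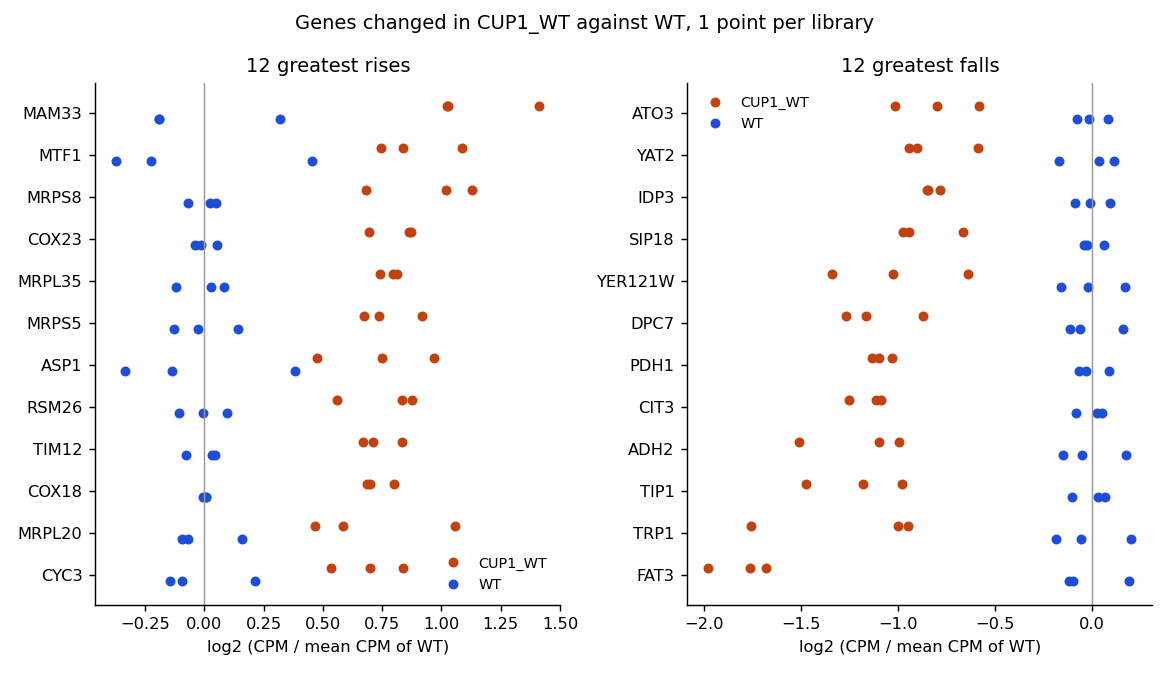
Log2 of CPM over the WT mean (horizontal) in each library of CUP1_WT and WT for the 12 genes with the greatest rise (left) and the greatest fall (right). The CUP1_WT and WT points of each gene do not overlap, and MAM33 and FAT3 lie farthest out, at log2 differences of 1.17 and -1.80.

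The sequences just after the coding regions of the risen genes had a letter pattern in common. Puf3, a Pumilio-family protein, is known to bind a UGUA-containing element in the 3′ untranslated region of many nuclear mRNAs for mitochondrial proteins, the mitochondrial ribosomal proteins above all. The pattern TGTANATA, N being any base, was looked for in the 200 bases after the stop codon of 5518 tested genes, in RefSeq gene models of the S288C reference (R64), matched by locus tag. The build behind the counts and the exact sequence of these strains are not known, and the pattern was chosen after the values were seen. On the coding strand 819 of the 5518 genes (14.8%) held it. Of the 64 risen genes other than PHO92 and YDR008C, 52 held it (81.2%), and of the 31 fallen genes 2 did (6.45%). On the opposite strand 9 of the 64 held it (14.1%), against 13.6% of all genes.

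Of the 12 greatest rises 10 held the pattern, and the first site of each is shown to let the stretches be compared, with TGTANATA in capitals, on the coding strand.
MAM33: tcaaatttaacTGTAAATAatttatatata
MRPS8: tatacggaccaTGTAAATAataatattata
COX23: tcgcaatggtaTGTAAATAagcaagctaaa
MRPL35: ttatagtatccTGTACATAtaaaataacgt
MRPS5: aatactaTGTACATAcacacgcaccattat
RSM26: atcttatatacTGTAAATAgttttatttta
TIM12: cTGTAAATAtgaggactgtctgtgctgttt
COX18: ctacatcagctTGTAAATAaacaaaaatga
MRPL20: aataacaatcgTGTAAATActactctataa
CYC3: gcgtaagtacgTGTAAATAgccaagtaaga
Counted from 1 at the first base after the stop codon, the site began at base 2 in TIM12 and at base 131 in COX23, with the others between. MTF1 and ASP1 did not hold these letters in the window.

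The pattern was not limited to the 67 genes of the mitochondrial ribosomal list. It stood after 65 of them, the 22 that rose and 43 of the 45 that did not pass the test. It also stood after 30 of the 42 risen genes outside that list (71.4%). Those outside include mitochondrial ribosomal genes with other names, such as RML2 and NAM9. The 754 genes with the pattern outside the mitochondrial ribosomal list had a median log2 difference of 0.10, and 524 of them (69.5%) lay above 0. The 4698 genes without it had a median of 0.00 and 2397 (51%) above 0. Of the 754 genes 30 rose (3.98%) and 2 fell, and of the 4698 genes 12 rose (0.255%) and 29 fell. Of the 45 further genes outside the ribosomal list that were called higher with the replicate block alone, 30 held the pattern (66.7%). A match is a description of the letters and not a measurement of binding. The mRNA of PUF3 itself (YLL013C) had 154, 170 and 137 CPM in CUP1_WT, against 129, 146 and 157 CPM in WT, overlapping ranges (log2 0.09, SE 0.19, limma adjusted p = 0.987).

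**Figure D4:**
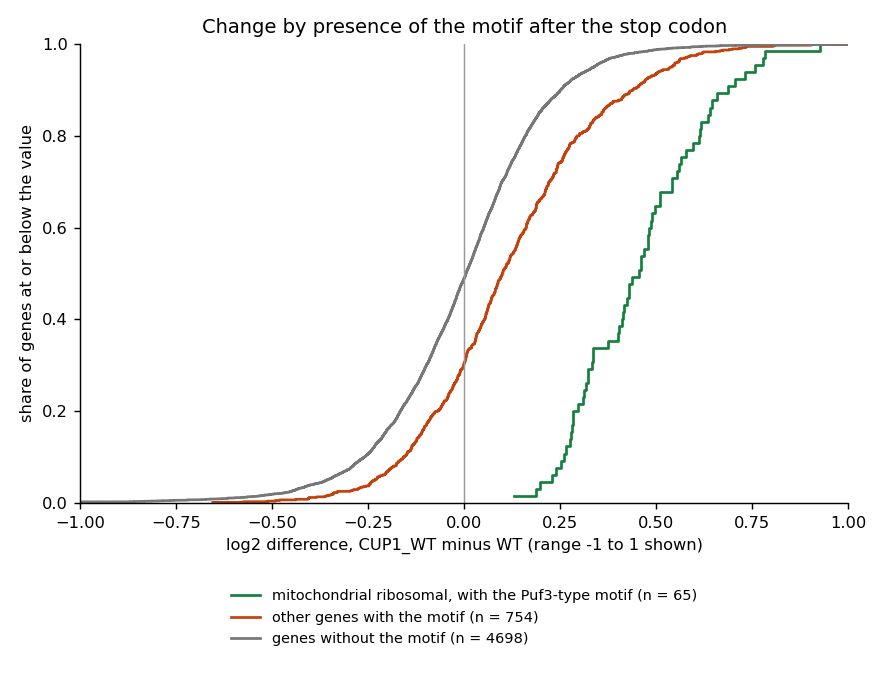
Share of genes at or below each log2 difference of CUP1_WT minus WT, for mitochondrial ribosomal genes with the Puf3-type pattern after the stop codon (n = 65), other genes with it (n = 754) and genes without it (n = 4698). The medians are 0.45, 0.10 and 0.00.

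Among the falls were 3 genes of propionate breakdown, grouped here after their values were seen. Yeast oxidises propionate through the methylcitrate cycle, to which these genes belong: CIT3, the mitochondrial methylcitrate synthase, PDH1, the presumed dehydratase, and ICL2, the methylisocitrate lyase. CIT3 (YPR001W) had 1987, 1951 and 1770 CPM in CUP1_WT, against 4295, 3993 and 4378 CPM in WT, a log2 of -1.15 (SE 0.14, limma adjusted p = 1.13e-05). PDH1 (YPR002W) had 3296, 3443 and 3211 CPM in CUP1_WT, against 6907, 6730 and 7501 CPM in WT, a log2 of -1.09 (SE 0.13, limma adjusted p = 1.13e-05). ICL2 (YPR006C) had 1553, 1675 and 1622 CPM in CUP1_WT, against 2303, 2223 and 2575 CPM in WT, a log2 of -0.55 (SE 0.12, limma adjusted p = 0.0106). The ICL2 call was lost without CUP1_WT replicate 1 or WT replicate 3 (limma adjusted p of 0.0615 and 0.0665). All CUP1_WT libraries lay below all WT libraries for each of the 3 genes. CIT3 and PDH1 had 5824 ± 694 and 8210 ± 910 CPM in pho92_null, and 3288 ± 300 and 5085 ± 144 CPM in W177A (SD, n = 3 each), so W177A lay between CUP1_WT and WT for these genes.

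Also among the falls were 3 genes of the carnitine shuttle, which carries acetyl units between compartments. YAT2 (YER024W), a carnitine acetyltransferase, had 1983, 2467 and 1927 CPM in CUP1_WT, against 3296, 4018 and 3810 CPM in WT, a log2 of -0.81 (SE 0.16, limma adjusted p = 0.00548). CAT2, the major carnitine acetyltransferase, had 2257, 2478 and 2398 CPM in CUP1_WT, against 3415, 3637 and 3944 CPM in WT, a log2 of -0.62 (SE 0.15, limma adjusted p = 0.0203). CRC1, the mitochondrial carnitine carrier, fell by 0.42 on the log2 scale (SE 0.10, limma adjusted p = 0.0239), and YAT1, a mitochondrial carnitine acetyltransferase, was called lower with the replicate block alone. These genes, except YAT2, were picked for their role after their values were seen.

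Of single genes FAT3 (YKL187C), needed for fatty acid uptake, fell most. It had 92.1, 113 and 107 CPM in CUP1_WT, against 334, 340 and 414 CPM in WT, a log2 of -1.80 (SE 0.37, limma adjusted p = 0.00571). It had 677 ± 251 CPM in pho92_null and 338 ± 180 CPM in W177A (SD, n = 3 each). ADH2 (YMR303C), the glucose-repressed alcohol dehydrogenase that oxidises ethanol, had 1943, 1459 and 2087 CPM in CUP1_WT, against 4022, 3758 and 4705 CPM in WT, a log2 of -1.20 (SE 0.20, limma adjusted p = 0.000754). TIP1 (YBR067C), a cell wall mannoprotein, had 167, 136 and 192 CPM in CUP1_WT, against 387, 352 and 396 CPM in WT, and its log2 was -1.21 (SE 0.20, limma adjusted p = 0.000611). For FAT3 and ADH2 the strain means were lowest in CUP1_WT, higher in WT and highest in pho92_null, at 1830, 4161 and 6732 CPM for ADH2. IDP3 (YNL009W), the peroxisomal isocitrate dehydrogenase, had 47.2, 47.4 and 49.5 CPM in CUP1_WT, against 90.8, 80.1 and 84.6 CPM in WT, a log2 of -0.82 (SE 0.13, limma adjusted p = 0.000297). Lesser falls included OM45, an outer-membrane protein of mitochondria (-0.72), ACH1, a mitochondrial CoA transferase (-0.50), TKL2, a transketolase (-0.52), and ABP1, an actin-binding protein (-0.62), which were chosen after their values were seen.

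The wider list for acetate use, the glyoxylate cycle and gluconeogenesis had 34 genes, of which 4 fell (ATO3, CIT3, ICL2 and SDH2) and 0 rose, against 0.531% of all genes called lower. ATO3 (YDR384C), an ammonium and acetate transporter, had 413, 355 and 480 CPM in CUP1_WT, against 711, 681 and 762 CPM in WT, a log2 of -0.80 (SE 0.14, limma adjusted p = 0.00175). Of the 34 genes 33 lay below 0, with a median of -0.26. In 17 of them the 3 CUP1_WT libraries lay below the 3 WT libraries, against 8.99% of all genes. PCK1, the first committed enzyme of gluconeogenesis, had a log2 of -0.58 without passing the test (limma adjusted p = 0.299), at 2486 to 2698 CPM in CUP1_WT, against 3147 to 4297 CPM in WT. ICL1, the isocitrate lyase of the glyoxylate cycle, likewise had -0.47 (limma adjusted p = 0.204). SDH2 passed only narrowly (log2 -0.49, SE 0.13, limma adjusted p = 0.0479), and lost its call whichever of the 6 libraries was left out (limma adjusted p of 0.0877 to 0.184). With the block and only the 6 libraries 15 of the 34 genes fell, against 7.4% of all genes called lower in that fit.

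The respiratory chain lay on the other side of 0 from the mitochondrial ribosome. Of 35 nuclear genes for its subunits and the ATP synthase 2 fell, COX8 and NDE2, and 0 rose, against 0.531% of all genes called lower. Of the 35 genes 30 lay below 0, with a median of -0.20. COX8, a small subunit of cytochrome oxidase, had 22.7, 22.5 and 28.3 CPM in CUP1_WT, against 32.7, 33.2 and 36.3 CPM in WT, a log2 of -0.48 (SE 0.09, limma adjusted p = 0.00332). NDE2, an external NADH dehydrogenase, had 465, 520 and 580 CPM in CUP1_WT, against 742, 745 and 836 CPM in WT, a log2 of -0.57 (SE 0.13, limma adjusted p = 0.0156). The NDE2 call was lost without CUP1_WT replicate 1 or 2 or WT replicate 3 (limma adjusted p of 0.0577 to 0.102). With the replicate block COX6 was also called, and with the block and only the 6 libraries 13 of the 35 fell, against 7.4% of all genes called lower in that fit.

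Lists of genes for a further look were taken from strains outside the comparison. In a separate fit of W18A against W177A, both with PHO92 under the CUP1 promoter, 463 genes were lower and 132 higher in W18A (limma adjusted p under 0.05). Of the 463 genes 25 fell and 0 rose in CUP1_WT against WT, 5.4% of the list and 80.6% of the 31 falls, against 0.531% of all genes called lower. Their median log2 was -0.17, and 352 of them lay below 0, against 2741 of the 5840 genes. The mean log2 level of the 463 genes relative to WT was -0.18 ± 0.09 in CUP1_WT, 0.62 ± 0.04 in W177A and 0.60 ± 0.03 in pho92_null (SD, n = 3 each). W177A was used to choose these genes, so its high level follows from the choice. CUP1_WT libraries lay between -0.24 and -0.07 and WT libraries between -0.07 and 0.11, while the same-numbered pairs had medians of -0.16, -0.16 and -0.18. With the replicate block 48 of the 463 genes fell and 1 rose, against 1.25% of all genes called lower and 2.14% called higher. Without WT replicate 3 the median was -0.12, and without CUP1_WT replicate 3 it was -0.22.

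Of the 132 genes higher in W18A than in W177A, 38 rose and 0 fell, 28.8% of the list and 57.6% of the 66 rises, against 1.13% of all genes called higher. The median log2 was 0.39 with 129 of 132 above 0. In 75 of them the CUP1_WT libraries lay above the WT libraries, against 8.17% of all genes. The 132 genes include 20 of the mitochondrial ribosomal proteins. The mean level of the 132 genes relative to WT was 0.42 ± 0.02 in CUP1_WT, -0.24 ± 0.03 in W177A and -0.20 ± 0.09 in pho92_null (SD, n = 3 each). Here too W177A was used to choose the genes, so its low level follows from the choice. A list drawn instead from W18A against pho92_null held 370 genes, with 49 rises (13.2% of the list, against the same 1.13% of all genes) and a median of 0.23. The lists also hold TRP1 and YDR008C, described next.

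At the locus that received the construct, the labels and the counts differed between strains. TRP1 (YDR007W), a tryptophan synthesis gene, had 9.89, 5.64 and 9.55 CPM in CUP1_WT, against 18.4, 16.8 and 22 CPM in WT, a log2 of -1.21 (SE 0.19, limma adjusted p = 0.000365). YDR008C, the neighbour of TRP1 by its systematic name and not matched in RefSeq, had 2.7, 2.63 and 2.24 CPM in CUP1_WT, against 0.375, 0.551 and 0.526 CPM in WT, a log2 of 2.19 (SE 0.30, limma adjusted p = 6.59e-05). W18A and del28_52_130_155 resembled CUP1_WT, with TRP1 at 9.07 ± 0.843 and 12.5 ± 2.56 CPM and YDR008C at 2.55 ± 0.378 and 2.79 ± 0.157 CPM (SD, n = 3 each). W177A resembled WT, with TRP1 at 25.3 ± 1.71 CPM and YDR008C at 0.573 ± 0.289 CPM (SD, n = 3 each). The genotype is spelled Trp1:: for CUP1_WT and trp1:: for the other CUP1-driven strains. The use of strand in counting is not stated, so reads of neighbouring or overlapping features on opposite strands cannot be told apart, and the part of the locus in the other results was not tested. The mitochondrial ribosomal genes were at 0.48 ± 0.10 in W18A and -0.24 ± 0.06 in del28_52_130_155 (SD, n = 3 each). These strains also carry different PHO92 variants, so their values cannot separate a part of the locus. W18A and W177A, the source of the lists above, differed at this locus in the same directions as CUP1_WT and WT.

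Several groups had no called gene in the fit without the replicate block. Of 14 copper-response genes 0 passed (2 at an unadjusted limma p under 0.05), and the metallothionein CUP1-1 had 1154, 1404 and 1581 CPM in CUP1_WT, against 1751, 1697 and 1468 CPM in WT. With the block and only the 6 libraries 3 of the 14 rose (CTR1, SOD1 and CCC2) and 1 fell (CRS5). In that fit 10.7% of all genes were called higher and 7.4% lower. Of 10 regulators of meiotic entry 0 passed (1 at an unadjusted limma p under 0.05), and RIM101, a repressor needed for meiotic entry, was called lower with the replicate block alone (log2 -0.32). Of 30 middle sporulation genes, which follow the regulator Ndt80, 0 passed (0 also at an unadjusted limma p under 0.05), with a median of 0.03. Their mean level relative to WT was 0.97, 0.28 and -1.15 in CUP1_WT replicates 1, 2 and 3, against 0.68, 0.43 and -1.11 in WT replicates 1, 2 and 3. The same-numbered libraries lay close together while the strains overlapped throughout. Of 27 genes of meiotic recombination and synapsis 0 passed (0 also at an unadjusted limma p under 0.05), with a median of -0.20 and 22 below 0, and with the block and only the 6 libraries 9 fell and 1 rose, against 7.4% of all genes called lower and 10.7% called higher in that fit. The CCR4-NOT deadenylase, which works with Pho92 in decay, had 0 of 11 genes called (1 at an unadjusted limma p under 0.05), and the decapping and decay factors 0 of 25 (0 at an unadjusted limma p under 0.05). With the replicate block 1 of the 11 rose, against 2.14% of all genes called higher. With the block and only the 6 libraries 2 of the 11 rose and 2 fell, while 3 of the 25 rose and 0 fell. In that fit 10.7% of all genes were called higher and 7.4% lower.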

How the data were processed

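RNA levels of 39 libraries were analysed, 3 for each strain, with strain and replicate taken from the titles. The authors deposited 1 table whose columns hold, below 46 lines of headings and annotations, whole-number counts for 6186 features. The annotation lines share those columns and include principal-component scores, so each deposited column mixes values and does not count as a plain count column. The planned count tests were therefore not run. The submitters' processing notes name STAR 2.7.10a, RSEM 1.3.1 and DESeq2 1.48.1, without roles. The genome build, annotation and use of strand in counting are not given in the sources used here. Of the 6186 features 5630 matched a RefSeq R64 locus tag, and no coordinates were printed.

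Kept were the 5840 features with 15 or more counts in all that reached, in 3 or more libraries, the rate equal to 10 counts at median depth. TMM factors were computed and log2 CPM taken with a prior count of 2, which understates changes of low genes. Limma 3.58.1 (R 4.3.3) was fitted to all 39 libraries, with strain as the factor and a trended variance. Benjamini-Hochberg adjustment ran over all genes. Fold changes are CUP1_WT minus WT, and error bars of log2 values are the model's standard errors. An exact permutation test of 3 libraries against 3 cannot go below p = 0.1, so none is given. The scripts were first tested on simulated data.

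Deviations from the strain means correlated by 0.791, 0.495 and 0.841 between same-numbered CUP1_WT and WT libraries (numbers from the titles), over 0.1 in every pair, so the numbers pair the samples. Values with the replicate block are given for the main counts and for a part of the lists and genes whose calls they change. Alternatives were other size factors, no filter, another prior count, limma-voom weights, only the 6 libraries, the block and each library left out. Named genes were PHO92, the 12 greatest rises and 12 greatest falls among called genes that averaged 50 counts or more in the higher strain and moved in the same direction in all 3 same-numbered pairs, called members of the gene lists, the m6A writer genes, TRP1 and CUP1-1. Members, lists and rules were chosen with earlier results of these data known. List members HO, CUP1-2, PHO11, IMD2, QCR9, BIO6, DAN4, MAL31, MPH2 and the double-numbered ARG and ADE genes were not matched by name.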

Additional observations from a re-analysis of the deposited data

How the results depend on the processing

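No result changed direction under any alternative run. With the replicate block the counts were 198 genes called, 125 higher and 73 lower, with 36 mitochondrial ribosomal genes. With the block and only the 6 libraries they were 1035, 611, 424 and 55. Only the 6 libraries without the block, where fewer libraries set the spread, gave 2, 1, 1 and 0, although 560 genes had an unadjusted limma p under 0.05. Leaving out 1 library gave 50 to 90 genes called, 32 to 72 higher and 16 to 25 lower, and with the block 97 to 158, 61 to 102 and 31 to 56, the fall count without CUP1_WT replicate 3 being 47. Both kinds of fit gave 15 to 31 mitochondrial ribosomal genes called, and medians of -0.22 to -0.12 for the genes lower and 0.37 to 0.42 for those higher in W18A than in W177A. The second list had 0.23 when drawn against pho92_null. Other size factors, no filter, a prior count of 0.5 and limma-voom weights gave 93 to 104 genes called. The mitochondrial ribosomal median lay between 0.41 and 0.48 in the alternatives. The block changed no call of a named gene, and the cause of its greater counts was not tested. Windows of 100 and 300 bases, added after the data were seen, held the pattern in 71.9% and 82.8% of the risen genes. A count test (DESeq2 or similar) was planned and not run, since the columns did not pass as plain counts. Low genes such as MRPS8 and YDR008C rest on few counts.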

Other observations

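Besides the Puf3-type pattern, 8 other letter patterns were searched after the values were seen, as descriptions without a test. In the 500 bases upstream of the start codon, on both strands, the carbon source element of gluconeogenic promoters stood in 29% of the 31 fallen genes, 15.6% of the risen genes and 7.16% of all genes. TTGGAG, which resembles an Adr1 site, stood in 38.7% of the fallen, 7.81% of the risen and 18.8% of all genes. A separate pattern that begins with CC and ends with GG stood in 58.1%, 53.1% and 49.2% of the fallen, risen and all genes. That pattern is not a form of the carbon source element. CGGNNNTNA stood in 51.6%, 35.9% and 37.3%, and another zinc-cluster-type pattern in 6.45%, 9.38% and 7.87%. In the 200 bases after the stop codon, on the coding strand, GGAC, which resembles the core of the methylation motif, stood in 16.1% of the fallen, 18.8% of the risen and 19.2% of all genes. AGAC stood in 38.7%, 26.6% and 33.7%, and GGACA in 0%, 1.56% and 8.19%. GGAC is part of GGACA, so these overlap.

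Some further lists had no called gene by limma with all 39 libraries. The iron regulon had a median log2 of -0.03 over 24 genes, sulphate assimilation and methionine synthesis 0.13 over 29, ribosome biogenesis 0.12 over 53, the proteasome 0.07 over 34 and autophagy -0.04 over 37. At an unadjusted limma p under 0.05 these lists had 0, 0, 4, 0 and 2 genes. Glycogen and trehalose genes had a median of -0.18 with 18 of 19 below 0, and none called, with 2 at an unadjusted limma p under 0.05. Of 17 cell wall mannoprotein genes 1 was called lower, TIP1 (5.88%, against 0.531% of all genes), and 0 higher, with a median of -0.11. Of the 475 genes lower in W18A than in pho92_null, 26 were called lower in CUP1_WT, TRP1 among them, and 0 higher, with a median of -0.18. That is 5.47% of the list, against 0.531% of all genes called lower.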
